A study of Arabidopsis thaliana with 16 samples.

Results

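Seeds of Arabidopsis thaliana (accession Col-0) sampled after 24 h of stratification (S24) were compared with dry seeds (DS) at every nuclear locus. Stratification is the imbibition of seeds in water in the cold and in darkness, so the comparison asks which RNAs changed in the first day after a dry seed took up water. Estimated counts of all transcripts of a locus were added up, which gave 40224 nuclear loci among 40414 loci in all, and 28636 of them had enough counts to be tested. S24 had 2 libraries and DS had 2 libraries. All were made from whole wild-type seeds, with no transgene, and a smaller mass of seeds was extracted for DS. The study sequenced total RNA in 16 libraries, and 12 were not part of the contrast. They were Col-0 seeds at 72 h of stratification (S72), Col-0 sampled later in the light (L6 at 6 h, L26 at 26 h and L57 at 57 h), and the exosome pathway mutants hen2-4 and rrp4-2, which only entered the fit. The labels do not say whether replicates came from separate seed lots or cultures. All p-values therefore rest on the spread among the libraries sequenced, which may be technical. A whole seed holds an embryo, a layer of endosperm and a seed coat, and in such bulk samples fewer cells of a type and less RNA per cell cannot be told apart.

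A mature seed is dry, yet it stores many mRNAs made while it ripened on the mother plant. Water uptake restarts respiration, transcription and translation within hours, and cold imbibition releases dormancy before light and warmth allow the root to emerge. Abscisic acid keeps a seed dormant and its storage programme active, gibberellin promotes germination, and the balance of both hormones is set by temperature and light. In the abscisic acid pathway, receptors of the PYR1 and PYL family bind the hormone and inhibit group A protein phosphatases 2C, which frees SnRK2 kinases to phosphorylate basic leucine zipper factors such as ABI5. These factors bind ABRE motifs in the promoters of genes for dehydrins, late embryogenesis abundant proteins and storage proteins.

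Total counts per library were 237727756 and 259378583 in S24, against 75618077 and 112510105 in DS, so depth and group cannot be told apart. Nuclear ribosomal RNA took 0.047% and 0.042% of counts in S24, against 12.333% and 0.543% in DS, and DS replicate 1 thus stood apart. The S24 libraries also held counts for more loci, with 3577 and 9092 nuclear loci without a count in S24, against 13770 and 14232 in DS. The S72 libraries, with 242838929 and 253728958 counts, had 12695 and 12946 such loci. Pseudogenes had a median count of 19 and 7 in S24, against 0 and 0 in DS. The part of this broad low signal in the changes of loci at low levels was not tested, and the values of such loci are therefore given with it in view.

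Of the nuclear loci tested, 5071 (17.7%) were higher in S24 than in DS and 2910 (10.2%) were lower. Both shares are the background for the counts of every list and family below. A locus was called when edgeR's quasi-likelihood test gave an adjusted p under 0.05 and the fold change was at least 2. Levels are CPM, that is, counts scaled to a common library size with TMM factors, and a log2 fold change is S24 minus DS. Among the 16048 loci with at least 1 CPM in the higher group, 2946 (18.4%) were higher and 2214 (13.8%) were lower. The median log2 fold change was 0.23 over all loci tested and -0.03 over those with at least 1 CPM. Another scaling moved it, to 0.08 with DESeq2 size factors and to 0.44 when organellar and ribosomal RNA loci were left out of the library totals, so changes near 1 on the log2 scale depend on the scaling.

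The direction of change depended on how abundant an RNA was, as the plot of change against level shows. Among the 150 loci with at least 1000 CPM, 15 were higher (10.0%) and 79 were lower (52.7%), with a median log2 fold change of -1.03. That median lies near the 2-fold limit, where calls depend on the scaling. Between 100 and 1000 CPM 19.4% of 1922 loci were higher and 17.0% lower, and between 10 and 100 CPM 15.1% of 7821 loci were higher and 10.7% lower. Under 1 CPM 16.9% of 12588 loci were higher and 5.53% lower, with a median of 1.06, and these are the levels at which the S24 libraries held counts that DS lacked. The pool of nuclear RNA outside ribosomal RNA, non-coding RNAs included, was less concentrated after a day of imbibition. The 10 most abundant nuclear loci outside ribosomal RNA held 20.6% and 22.6% of the deposited TPM, a relative abundance corrected for transcript length, in S24, against 28.9% and 29.6% in DS. To reach 50.0% of the TPM took 214 and 155 loci in S24, against 43 and 43 loci in DS.

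**Figure D1:**
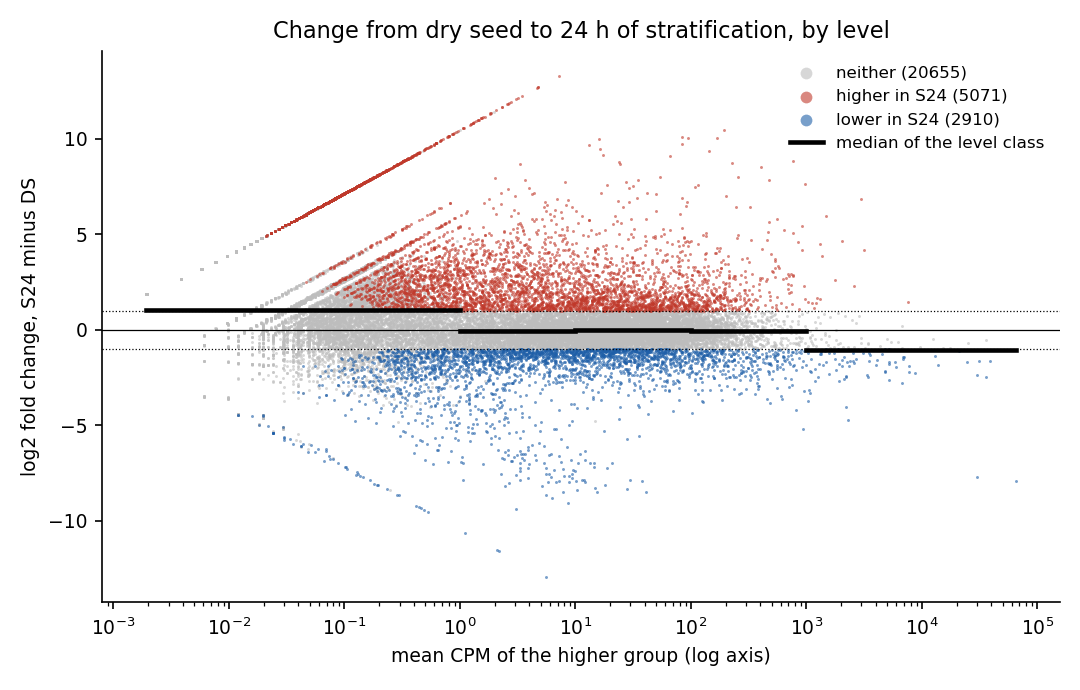
Each point is a nuclear locus tested, with its level in the higher group (CPM, log axis) and its log2 fold change (S24 minus DS), coloured by call. Thick black horizontal lines give the median of each level class. The median falls to -1.03 among the 150 loci with at least 1000 CPM, where 79 are lower and 15 higher.

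The most abundant mRNAs per length were in large part the same loci. The response regulator RR3 had 13832 and 15162 TPM in S24, against 11840 and 15117 TPM in DS, and the defensin gene LCR67 had 24926 and 30391 TPM in S24, against 24727 and 25920 TPM in DS, with log2 fold changes in CPM of -0.52 and -0.50 that did not reach 2-fold. The scales differed for these genes, whose mean TPM was higher in S24 (14497 against 13479 for RR3 and 27659 against 25324 for LCR67). The seed protein genes below were lower in S24 on both scales. The non-coding RNA AT1G15405 (chromosome 1, 5297875 to 5298166) had the highest TPM of all, 71248 and 77994 TPM in S24, against 69393 and 83496 TPM in DS, and its libraries overlapped between the groups on that scale. Lower levels after imbibition were found for seed proteins. RAB18, a dehydrin that protects dry cells, had 14341 and 16657 TPM in S24, against 30430 and 31917 TPM in DS (log2 fold change in CPM -1.64), and PAP85, a vicilin-like storage protein gene, had 10171 and 10260 TPM in S24, against 19358 and 21692 TPM in DS (-1.64). The oleosin gene OLEO1 and the albumin gene SESA5, with log2 fold changes in CPM of -0.95 and -0.93, stayed under the 2-fold limit, as did the late embryogenesis abundant gene EM6 (-0.90). AT3G15670, another late embryogenesis abundant gene, had 9916 and 10773 TPM in S24, against 20108 and 22630 TPM in DS (log2 fold change in CPM -1.68), and AT1G54870, an oxidoreductase gene, had 10718 and 11068 TPM in S24, against 13970 and 15727 TPM in DS (-1.08). The call of AT3G15670 was lost when DS replicate 1 and S24 replicate 1 were both omitted, although the log2 fold change was still -1.56, and that of AT1G54870 was lost without S24 replicate 1 (-0.96), without organellar and rRNA loci (-0.85) and without both replicates numbered 1 (-0.99). By contrast, the cruciferin genes CRA1 and CRU3 ranked among the first 10 in DS only, with 4983 and 5443 TPM in S24, against 17202 and 19531 TPM in DS for CRA1 and 4072 and 5019 TPM in S24, against 14248 and 15515 TPM in DS for CRU3.

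The largest rises included several regulators. They were taken from loci with at least 20 CPM whose libraries did not overlap between groups, and their values were as follows. WOX11 (AT3G03660, chromosome 3, 889166 to 892229), a WUSCHEL-related homeobox gene that specifies founder cells of adventitious roots, had 68.0 and 63.8 CPM in S24, against 0.0394 and 0.169 CPM in DS (log2 fold change 9.10, SE 0.21, adjusted p = 3.09e-12). PHI-1 (AT1G35140, chromosome 1, 12851983 to 12853235), which belongs to the EXORDIUM-like phosphate-induced proteins, had 114 and 173 CPM in S24, against 0.177 and 0.241 CPM in DS (log2 fold change 9.37, SE 0.34). The basic leucine zipper gene bZIP2 (AT2G18160, chromosome 2, 7898012 to 7899242) had 223 and 231 CPM in S24, against 0.296 and 0.675 CPM in DS (log2 fold change 8.76, SE 0.20, adjusted p = 2.61e-12). All 3 genes were under 1 CPM in both DS libraries and at 63.8 CPM or more in both S24 libraries. AT2G44800, an oxygenase gene of the 2-oxoglutarate-dependent superfamily, averaged 83.3 ± 6.11 CPM in S24 and 0.0602 ± 0.0852 CPM in DS (log2 fold change 10.12, SE 0.40), and AT3G19680, which encodes a protein of unknown function, had 353 and 456 CPM in S24, against 0.887 and 1.23 CPM in DS (log2 fold change 8.54, SE 0.16). A rhodanese-like gene (AT2G17850), a nucleotide binding protein gene (AT1G12805) and the NAC factor gene NTL8 also stood in this group, with log2 fold changes of 10.47, 10.06 and 10.02. Both of the remaining protein-coding genes, PYL6 and WIP4, are described with their pathways.

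Several of the largest falls were in genes known from pollen. AT3G01270, a pectate lyase gene, had 0.0917 and 0.0815 CPM in S24, against 25.1 and 30.8 CPM in DS (log2 fold change -8.32, SE 0.35, adjusted p = 4.16e-09). The glyoxal oxidase-related gene AT5G19580 had 0.145 and 0.113 CPM in S24, against 26.0 and 33.5 CPM in DS (log2 fold change -7.84, SE 0.32), and sks13, a gene of the SKU5-similar family of multi-copper oxidase-like proteins, had 0.531 and 0.524 CPM in S24, against 24.3 and 31.6 CPM in DS (log2 fold change -5.73, SE 0.20). AT3G28750, which encodes an uncharacterized protein, had 0.252 and 0.0776 CPM in S24, against 18.2 and 23.6 CPM in DS (log2 fold change -6.98, SE 0.45). All 4 had less than 1 CPM in both S24 libraries. At much higher levels, AT4G11910 (chromosome 4, 7156150 to 7158047), a STAY-GREEN-like gene of chlorophyll breakdown, had 95.1 and 82.3 CPM in S24, against 2277 and 2342 CPM in DS (log2 fold change -4.70, SE 0.16, adjusted p = 6.22e-11).

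Among the largest falls were also loci of ribosomal RNA whose values rested on DS replicate 1. The 18S ribosomal RNA locus AT3G41768 had 265 and 275 CPM in S24, against 126572 and 4913 CPM in DS, and AT2G01010, the other 18S locus, had 147 and 143 CPM in S24, against 57185 and 2439 CPM in DS. The libraries did not overlap, but both calls were lost without DS replicate 1, with log2 fold changes of -4.22 and -4.10, against -7.93 and -7.68 with it. Both were also lost without S24 replicate 1, at -7.90 and -7.70. AT2G01021, an uncharacterized locus, had 27.6 and 22.7 CPM in S24, against 1644 and 215 CPM in DS, and lost its call when DS replicate 1 and S24 replicate 1 were both omitted (log2 fold change -3.24). How far rRNA was depleted from a library and how much the seed held cannot be told apart here.

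Many of the abscisic acid receptor genes rose, and 3 genes of the phosphatases they inhibit fell. Of the 13 PYR1 and PYL genes tested, 8 were higher (61.5%, against 17.7% of all nuclear loci tested) and none was lower, with a median log2 fold change of 1.49. The size of the change differed among receptors, as the plot of the pathway by library shows. PYL6 (AT2G40330, chromosome 2, 16844588 to 16846194) had 23.7 and 23.7 CPM in S24, against 0.0394 and 0.0602 CPM in DS (log2 fold change 8.81, SE 0.28, adjusted p = 4.14e-11), and PYL4 (AT2G38310, chromosome 2, 16049918 to 16051356) had 25.9 and 28.9 CPM in S24, against 0.118 and 0.132 CPM in DS (log2 fold change 7.74, SE 0.18, adjusted p = 3.09e-12). In the DS libraries 3 counts amount to 0.0591 and 0.0361 CPM, so these receptor mRNAs were hardly detected there. PYL2 had a measurable level in DS, with 73.2 and 85.1 CPM in S24, against 3.94 and 3.69 CPM in DS (log2 fold change 4.38, SE 0.12). Receptors that DS seeds already held changed less, with log2 fold changes of 2.11 for RCAR3, 1.63 for PYL5, 1.59 for PYR1 and 1.49 for PYL11. PYL5, for instance, had 215 and 250 CPM in S24, against 72.5 and 77.6 CPM in DS. PYL7 was not called, with 30.4 and 36.2 CPM in S24 and 65.1 and 65.4 CPM in DS (log2 fold change -0.97).

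The kinase OST1, also known as SnRK2.6 and best known for closing stomata, changed most in its family. OST1 (AT4G33950, chromosome 4, 16271745 to 16274825) had 238 and 275 CPM in S24, against 1.06 and 0.915 CPM in DS (log2 fold change 8.03, SE 0.12, adjusted p = 4.25e-13), a 261-fold difference. SNRK2-8 had 35.8 and 33.1 CPM in S24, against 0.217 and 0.325 CPM in DS (log2 fold change 6.92, SE 0.12). By contrast, SnRK2.2 and SnRK2.3, the kinases that carry the abscisic acid signal in seeds, were not called, with 85.7 and 92.1 CPM in S24 and 103 and 106 CPM in DS for SNRK2.2 and 106 and 116 CPM in S24 and 133 and 137 CPM in DS for SNRK2.3. Their log2 fold changes were -0.24 and -0.29, with the S24 libraries slightly below the DS libraries in both genes. Of 10 SnRK2 genes tested, 2 were higher (20.0%), 1 was lower (10.0%) and 7 were called in neither direction, shares close to the 17.7% and 10.2% of all nuclear loci.

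Of the 9 group A phosphatase genes, 1 rose and 3 fell (33.3%, against 10.2% of all nuclear loci). ABI2 had 24.8 and 25.6 CPM in S24, against 124 and 127 CPM in DS (log2 fold change -2.32, SE 0.15, adjusted p = 2.62e-08), and AHG1, which acts chiefly in seeds, had 143 and 156 CPM in S24, against 499 and 478 CPM in DS (log2 fold change -1.71, SE 0.15). HAI1 had a log2 fold change of -3.73. HAI3 went the other way, with 198 and 186 CPM in S24, against 40.8 and 45.3 CPM in DS (log2 fold change 2.15, SE 0.17), and PP2CA was not called (-0.92). At S72 OST1 had 226 ± 7.98 CPM (mean ± SD of 2 libraries), and at L57 it had 16.6 ± 0.0806 CPM, so its level in DS was the lowest of the Col-0 stages given here.

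**Figure D2:**
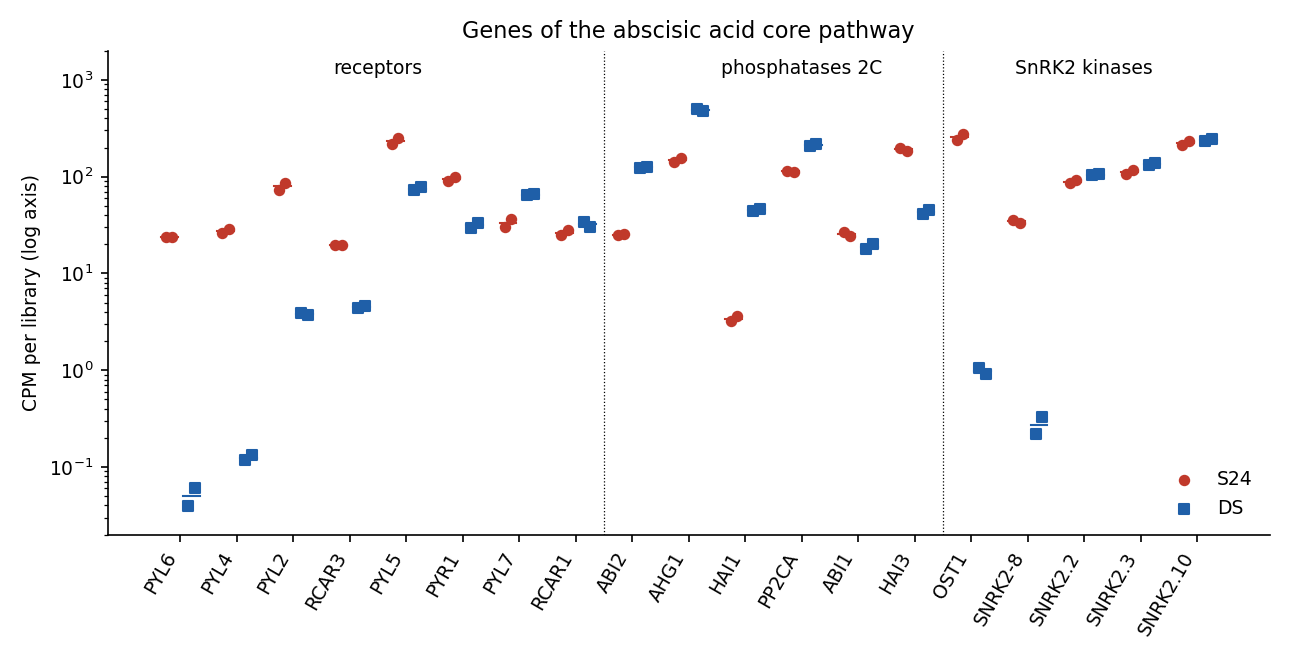
Level of abscisic acid receptors, group A phosphatases and SnRK2 kinases in each library (CPM, log axis), S24 in red on the left and DS in blue on the right of each gene. PYL6, PYL4, OST1 and SNRK2-8 are under 2 CPM in both DS libraries and above 20 CPM in both S24 libraries, while SNRK2.2 and SNRK2.3 differ little.

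Genes of abscisic acid synthesis and breakdown moved in both directions. Of the 12 tested, 2 were higher (16.7%, against 17.7% of all nuclear loci) and 3 lower (25.0%, against 10.2%), with a median log2 fold change of -0.05. CYP707A2 (AT2G29090, chromosome 2, 12494826 to 12499723), the 8'-hydroxylase that clears the hormone from imbibed seeds, had 168 and 182 CPM in S24, against 37.1 and 36.2 CPM in DS (log2 fold change 2.25, SE 0.09, adjusted p = 1.99e-10). CYP707A3 had 11.2 and 12.9 CPM in S24, against 3.57 and 4.07 CPM in DS (log2 fold change 1.65, SE 0.14), whereas CYP707A1, the hydroxylase active in maturing seeds, fell (-1.47) to 3.56 and 3.69 CPM in S24, against 9.52 and 10.6 CPM in DS. On the side of synthesis, ABA1, the zeaxanthin epoxidase gene, had 102 and 106 CPM in S24, against 333 and 323 CPM in DS (log2 fold change -1.66, SE 0.09), and NCED3, a dioxygenase gene of drought responses, had 0.573 and 0.419 CPM in S24, against 5.46 and 6.96 CPM in DS (log2 fold change -3.65, SE 0.37). The seed dioxygenase genes NCED6 and NCED9 were called in neither direction, with log2 fold changes of 0.05 and 0.63.

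Of 19 gibberellin genes tested, 7 were higher (36.8%, against 17.7% of all nuclear loci) and 3 lower (15.8%, against 10.2%). Of the 10 with at least 1 CPM 3 were higher and 3 lower, so 4 of the 7 rises lay at levels where the S24 libraries held more low counts. GA20OX3 (AT5G07200, chromosome 5, 2243553 to 2245339), an oxidase of the late steps of synthesis, had 89.8 and 77.1 CPM in S24, against 1.95 and 2.16 CPM in DS (log2 fold change 5.33, SE 0.16, adjusted p = 2.91e-11). It was the 1 member of the synthesis group with at least 1 CPM. GA3OX1, the oxidase that makes the active hormone in germinating seeds, stayed low, with 0.126 and 0.0388 CPM in S24 and 0 and 0 CPM in DS. Of the 5 DELLA genes, which encode repressors of gibberellin responses, 3 rose. RGA had 158 and 168 CPM in S24, against 10.5 and 9.70 CPM in DS (log2 fold change 4.01, SE 0.08, adjusted p = 1.37e-12), and RGL2, the main DELLA repressor of germination, had 137 and 140 CPM in S24, against 15.5 and 16.9 CPM in DS (log2 fold change 3.09, SE 0.10, adjusted p = 3.60e-11). RGL3 went down instead, with 23.2 and 24.6 CPM in S24, against 81.5 and 91.7 CPM in DS (log2 fold change -1.86, SE 0.11), and GAI was not called (-0.09). Of the receptors, GID1C fell (-1.47), with 22.0 and 21.3 CPM in S24, against 57.5 and 62.6 CPM in DS, and GID1A was not called (-0.40). GA2OX6, an enzyme that inactivates the hormone, also fell (-1.86). Synthesis, repressor and inactivation genes thus did not move as a block.

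Regulators of dormancy were split likewise, with 6 of 19 tested higher (31.6%, against 17.7% of all nuclear loci) and 5 lower (26.3%, against 10.2%). RDO5 (AT4G11040, chromosome 4, 6745100 to 6746944), a phosphatase-like gene whose loss reduces dormancy, had 3116 and 3248 CPM in S24, against 169 and 182 CPM in DS (log2 fold change 4.18, SE 0.16, adjusted p = 2.18e-10). Its level at S72 was 3589 ± 7.69 CPM, at L6 112 ± 2.67 CPM and at L57 0.246 ± 0.105 CPM, so the mRNA was high at both stages of stratification and lower in DS and in the light. DOG1, the main dormancy gene of Arabidopsis, was not called, with 79.6 and 83.9 CPM in S24 and 78.7 and 79.1 CPM in DS (log2 fold change 0.05). DAG1, a Dof factor that represses germination, had 9.66 and 11.3 CPM in S24, against 0.828 and 0.614 CPM in DS (log2 fold change 3.89, SE 0.21), and BZIP53, a factor of the maturation programme, had 161 and 156 CPM in S24, against 48.0 and 42.7 CPM in DS (log2 fold change 1.81, SE 0.08). PIF1, the phytochrome-interacting factor that blocks germination in darkness, had 112 and 88.1 CPM in S24, against 32.9 and 34.3 CPM in DS (log2 fold change 1.58, SE 0.10). The zinc finger gene SOM, which acts downstream of PIF1, fell (-1.22) to 1113 and 1054 CPM in S24, against 2416 and 2650 CPM in DS. The call of SOM was lost without organellar and rRNA loci (-0.98), and the list's falls then numbered 3. Of the maturation factors, FUS3 (-1.78) and EEL (-1.27) fell, and ABI3 was not called (0.92).

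Of the circadian clock genes, CCA1 and LHY of the morning group of 5 rose, and 3 of the 6 evening genes fell. The clock of Arabidopsis is a loop in which CCA1 and LHY, expressed at dawn, repress evening genes, and the PRR repressors act in turn through the day. Of 18 clock genes tested, 5 were higher (27.8%, against 17.7% of all nuclear loci) and 3 lower (16.7%, against 10.2%). CCA1 (AT2G46830, chromosome 2, 19245591 to 19248915) had 58.6 and 58.9 CPM in S24, against 1.50 and 2.08 CPM in DS (log2 fold change 5.00, SE 0.15, adjusted p = 2.34e-11). PRR9 had 48.9 and 49.1 CPM in S24, against 18.7 and 18.5 CPM in DS (log2 fold change 1.40, SE 0.15), and PRR5 had 17.9 and 16.6 CPM in S24, against 4.04 and 4.47 CPM in DS (log2 fold change 2.01, SE 0.11). ELF3, a part of the evening complex, was the 1 member of the evening group of 6 that rose, with 123 and 128 CPM in S24, against 36.3 and 39.6 CPM in DS (log2 fold change 1.72, SE 0.06). PRR3 had 10.3 and 8.88 CPM in S24, against 54.6 and 53.1 CPM in DS (log2 fold change -2.49, SE 0.10, adjusted p = 3.57e-10), GI had 50.0 and 48.4 CPM in S24, against 125 and 133 CPM in DS (log2 fold change -1.39, SE 0.08), and ELF4 had 3.00 and 4.38 CPM in S24, against 11.5 and 8.02 CPM in DS (log2 fold change -1.40, SE 0.29). The call of ELF4 was lost when DS replicate 1 and S24 replicate 1 were both omitted (-0.87). TOC1 and LUX, the other evening genes, were called in neither direction (-0.65 and -0.83). The hour of day of the sampling was not found in the labels or methods used here. CCA1 had 86.4 ± 2.01 CPM at S72 and averaged under 3 CPM at L6.

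S24 seeds had been kept in the dark, and of 20 genes of photoreceptors and light signalling tested 4 were higher (20.0%, against 17.7% of all nuclear loci) and 6 lower (30.0%, against 10.2%). PHYA, the phytochrome that senses very low light, had 384 and 365 CPM in S24, against 124 and 130 CPM in DS (log2 fold change 1.56, SE 0.07, adjusted p = 1.07e-09), and SPA1, a repressor that works with COP1, had 298 and 278 CPM in S24, against 87.3 and 90.7 CPM in DS (log2 fold change 1.69, SE 0.07). PIF7, a phytochrome-interacting factor, had 42.9 and 36.6 CPM in S24, against 8.26 and 8.66 CPM in DS (log2 fold change 2.23, SE 0.12), and HYH, the homologue of HY5, had 6.76 and 6.58 CPM in S24, against 1.04 and 1.24 CPM in DS (log2 fold change 2.52, SE 0.14). The PIF genes did not share a direction. PIF6, a member expressed in seeds, averaged 23.7 ± 2.38 CPM in S24 and 57.6 ± 0.580 CPM in DS (log2 fold change -1.28, SE 0.08), PIF3 had 6.60 and 6.69 CPM in S24, against 16.8 and 18.7 CPM in DS (log2 fold change -1.42, SE 0.08), and PIF4 was at a low level in both groups (-2.12). The blue light receptor gene PHOT1 fell (-1.18), a call that was lost without organellar and rRNA loci (-0.94). PHYC fell (-1.02), and its call was lost without organellar and rRNA loci (-0.78) and without DS replicate 2 (-0.94). PHYB, the main phytochrome of light-induced germination, was not called (0.18).

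The later stages place these levels, for a few genes chosen after their values had been seen. CYP707A2 averaged 29.1 ± 0.453 CPM at S72 and PIF7 7.77 ± 0.0673 CPM, so both had their highest mean of the 6 stages at S24. GA20OX3, RGA and WOX11 were higher again at S72, with 354 ± 1.85, 218 ± 18.4 and 348 ± 6.21 CPM. PRR3 averaged 9.93 ± 0.0236 CPM at S72, and GOLS2 137 ± 11.6 CPM. These stages were not compared with a test here.

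**Figure D3:**
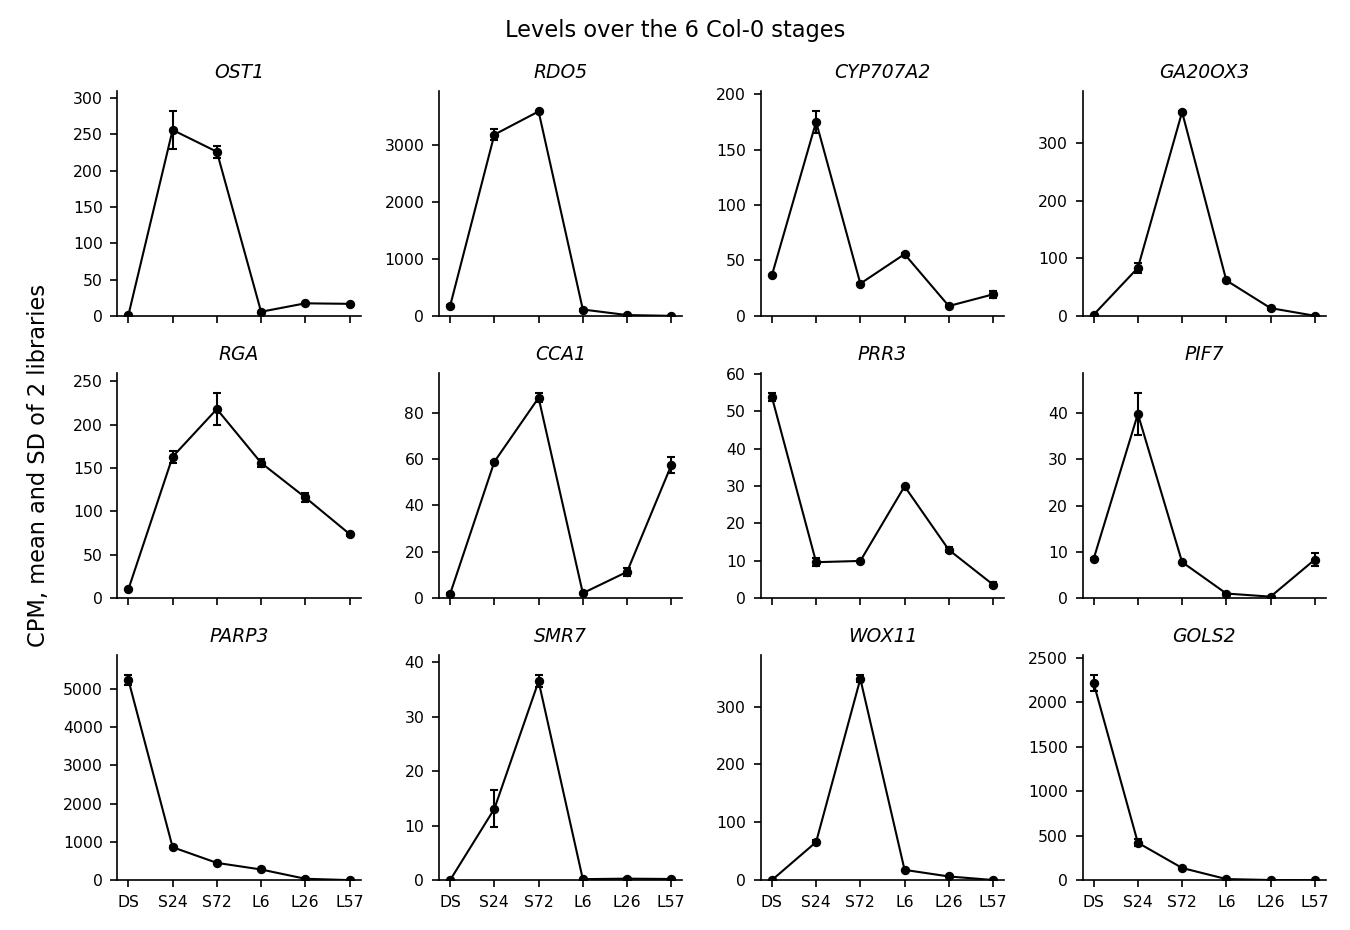
Mean level and SD of 2 libraries (CPM, linear axis from 0) of 12 genes over DS, S24, S72, L6, L26 and L57. OST1, RDO5 and CCA1 are higher in S24 than in DS, while PRR3, PARP3 and GOLS2 are lower, and only DS and S24 enter the comparison described.

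Promoters of genes that fell held the abscisic acid motif more often than other promoters. Windows of 250 bases before and 50 bases after the annotated start of 15012 protein-coding genes with at least 1 CPM were searched on both strands in the RefSeq genome TAIR10.1. The ABRE, ACGTGNC, was present in 22.3% of genes that were lower and 138 of the 572 genes at least 4-fold lower, against 12.6% of all promoters of that length. It was present in 10.0% of genes that were higher and 11.3% of those called in neither direction. The G-box, CACGTG, which shares bases with many ABRE matches, was present in 17.4% of genes that were lower, 8.3% of those that were higher and 9.7% of all. A motif of growth genes showed another pattern. Site II, TGGGCC, was found in 17.0% of genes that were higher, 14.3% of those that were lower and 24.0% of those called in neither direction, so that it was most frequent among genes that were not called. The telo-box, AAACCCTA, was found in 5.8%, 4.1% and 6.7% of the same groups. The evening element (AAAATATCT), the W-box core (TTGACN), the DRE core (CCGAC) and the heat shock element (GAANNTTC) differed less, as with the W-box core in 52.4% of genes that were higher, 52.7% of those that were lower and 50.6% of all. These are counts of letters, and a match is no evidence that a factor binds there.

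The promoters of 3 genes are printed to show how these motifs lie in genes on which the results turn. They were chosen after their values had been seen. EM1 encodes a late embryogenesis abundant protein of the mature embryo and SUS3 a sucrose synthase of ripening seeds, and both fell. PRR9 is a clock gene that rose. Bases are written from 5′ to 3′ on the strand of the gene, 300 each, from the RefSeq genome TAIR10.1, and capitals mark ABRE matches and, in PRR9, also the evening element near the end of the window. The windows are chr3:19214472-19214771, + strand, for EM1, chr4:994476-994775, + strand, for SUS3, and chr2:19232357-19232656, + strand, for PRR9.
EM1: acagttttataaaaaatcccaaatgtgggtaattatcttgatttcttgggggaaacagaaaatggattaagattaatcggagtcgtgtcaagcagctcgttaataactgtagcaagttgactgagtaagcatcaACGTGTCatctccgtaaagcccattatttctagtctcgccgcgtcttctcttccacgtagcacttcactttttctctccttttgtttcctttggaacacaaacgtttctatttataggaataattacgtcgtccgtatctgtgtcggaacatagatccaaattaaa
SUS3: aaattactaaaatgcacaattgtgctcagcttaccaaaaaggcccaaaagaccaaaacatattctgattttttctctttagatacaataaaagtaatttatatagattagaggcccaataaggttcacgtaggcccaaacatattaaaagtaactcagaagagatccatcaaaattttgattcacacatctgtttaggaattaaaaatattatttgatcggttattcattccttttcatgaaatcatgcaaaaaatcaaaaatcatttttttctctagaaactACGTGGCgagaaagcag
PRR9: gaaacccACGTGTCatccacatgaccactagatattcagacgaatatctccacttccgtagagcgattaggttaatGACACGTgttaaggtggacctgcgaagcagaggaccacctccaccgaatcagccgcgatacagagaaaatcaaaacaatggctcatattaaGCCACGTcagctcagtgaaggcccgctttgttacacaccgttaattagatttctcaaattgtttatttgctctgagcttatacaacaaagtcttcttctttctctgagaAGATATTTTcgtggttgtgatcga

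In EM1 the single ABRE begins 116 bases before the annotated start, and EM1 had 21.5 and 29.6 CPM in S24, against 332 and 191 CPM in DS (log2 fold change -3.36, SE 0.28, adjusted p = 2.67e-07). In SUS3 the match lies 33 bases after the start, inside the transcript, and SUS3 had 539 and 558 CPM in S24, against 1993 and 2048 CPM in DS (log2 fold change -1.88, SE 0.13, adjusted p = 5.29e-08). PRR9 holds 3 ABRE matches, at 243, 174 and 83 bases before the start, and it rose. The motif was thus present in genes that moved in either direction. Of the 18 clock genes 11 held an ABRE and 5 an evening element, and of the 9 markers of the mature embryo 6 held an ABRE. Among 29 cytosolic ribosomal protein genes, 13 held a telo-box and 19 a site II.

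Genes that rose had few introns. Among the same 15012 protein-coding genes, 29.5% of those that were higher had a single exon (728 of 2471), against 13.2% of those that were lower (277 of 2092), 9.92% of those called in neither direction and 13.6% of all. Among genes at least 4-fold higher the share was 34.6%, and among those at least 4-fold lower it was 22.4%. The difference was also found at higher levels. With at least 100 CPM, 25.3% of genes that were higher had a single exon, against 12.8% of those that were lower and 12.2% of all. The median number of exons was 3 in genes that were higher, 5 in genes that were lower and 5 in all genes, whereas the median transcript length of 1816 bp, 1780 bp and 1792 bp hardly differed.

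**Figure D4:**
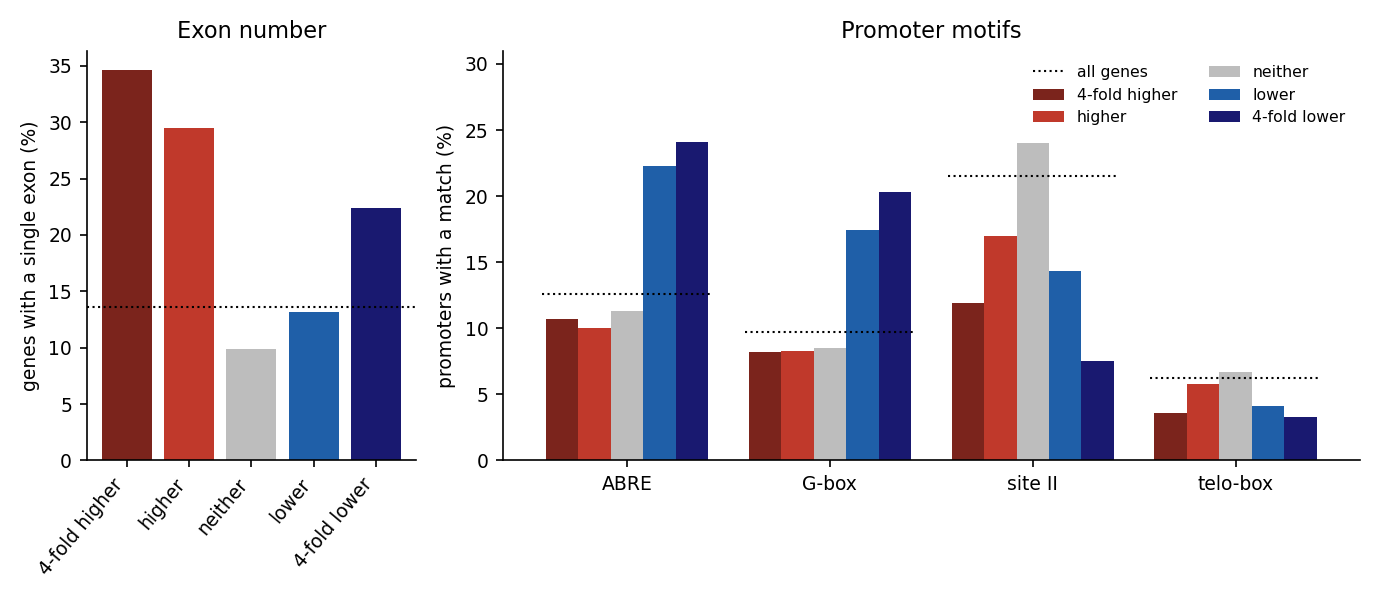
Share of protein-coding genes with a single exon and share of promoters with an ABRE, G-box, site II or telo-box (percent), by call, with dotted lines at the share among all genes. Single-exon genes make up 34.6% of genes at least 4-fold higher, and ABRE matches are found in 138 of the 572 genes at least 4-fold lower.

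Low oxygen genes formed the list with the highest median, 5.24 on the log2 scale. Of 23 tested 19 were higher (82.6%, against 17.7% of all nuclear loci) and none lower. Plants sense oxygen through enzymes that oxidise the amino-terminal cysteine of group VII ethylene response factors, and these factors switch on fermentation genes when oxygen is scarce. Genes of the sensor enzymes themselves rose. PCO1 (AT5G15120, chromosome 5, 4898641 to 4900734) had 238 and 272 CPM in S24, against 7.94 and 8.14 CPM in DS (log2 fold change 4.98, SE 0.10, adjusted p = 1.10e-12), and PCO2 had 515 and 604 CPM in S24, against 9.56 and 10.3 CPM in DS (log2 fold change 5.81, SE 0.10). LBD41, a LOB domain factor of the hypoxia core set, had 1275 and 1667 CPM in S24, against 23.3 and 24.4 CPM in DS (log2 fold change 5.94, SE 0.42, adjusted p = 6.22e-08), and SRO5 had 1791 and 2265 CPM in S24, against 78.7 and 80.7 CPM in DS (log2 fold change 4.67, SE 0.13). WIP4, a small wound-responsive protein gene, had 644 and 891 CPM in S24, against 1.42 and 1.84 CPM in DS (log2 fold change 8.85, SE 0.26, adjusted p = 1.86e-11), the largest rise of the list among members with at least 20 CPM. HUP9 had a DS base of 2 counts in all, against 8259 counts in S24, which gives a ratio of 1064 after scaling, with a 95% exact interval of 294 to 8783 that covers counting error only.

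Other members of the list act in receptor and channel functions. ETR2, an ethylene receptor gene, had 64.9 and 66.6 CPM in S24, against 2.07 and 1.49 CPM in DS (log2 fold change 5.24, SE 0.18), RBOHD, an NADPH oxidase gene, had 404 and 431 CPM in S24, against 63.8 and 62.3 CPM in DS (log2 fold change 2.73, SE 0.08), and NIP2;1, a channel for lactic acid, had 23.2 and 35.3 CPM in S24, against 0 and 0.277 CPM in DS (log2 fold change 7.43, SE 0.49). HRA1, a factor that restrains the response, had 43.2 and 56.8 CPM in S24, against 0.552 and 0.759 CPM in DS (log2 fold change 6.21, SE 0.20). Each of these was higher in both S24 libraries. The 4 members that were not called are enzymes. ADH1, alcohol dehydrogenase, had 1967 and 2332 CPM in S24 and 1263 and 1318 CPM in DS (log2 fold change 0.74), and PDC2, PPDK and SUS1 had log2 fold changes of -0.03, 0.03 and -0.44. The mRNA for the last step of ethanol fermentation was thus present in both DS libraries, at 1263 CPM or more.

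Few genes of the cold regulon rose in S24 seeds. In leaves, cold induces the CBF factors within hours, and these raise COR genes that protect membranes. Of 22 genes of this group tested, 2 were higher (9.09%, against 17.7% of all nuclear loci tested) and 6 lower (27.3%, against 10.2%), with a median log2 fold change of -0.05. CBF1, CBF2 and CBF3 had at most 0.106 CPM on average in S24 and no count in DS. COR15A averaged 0.0348 ± 0.0331 CPM in S24 and 0.141 ± 0.0798 CPM in DS. RD29A, a target of both cold and abscisic acid signals, had 11.5 and 12.2 CPM in S24, against 81.1 and 75.8 CPM in DS (log2 fold change -2.73, SE 0.13, adjusted p = 1.21e-09), and GRP8, a glycine-rich RNA-binding protein gene of cold and clock control, had 20.3 and 30.6 CPM in S24, against 86.8 and 74.6 CPM in DS (log2 fold change -1.66, SE 0.21). ZAT12, a zinc finger factor induced by cold and oxidative stress, had 74.3 and 92.3 CPM in S24, against 4.46 and 4.97 CPM in DS (log2 fold change 4.13, SE 0.16). The rises of the list numbered 1 without DS replicate 2 and 4 without S24 replicate 1.

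Of 10 genes that are targets of the DNA damage response 7 rose in S24 and 1 fell, and 2 kinase genes that trigger the response fell. Dry storage breaks DNA, and repair in the first hours of imbibition is known to matter for seed vigour. Of all 25 genes of the list tested, 7 were higher (28.0%, against 17.7% of all nuclear loci tested) and 4 lower, so all 7 rises were among the targets. SMR7, an inhibitor of the cell cycle induced by DNA damage, had 6793 counts in S24 and 2 in DS, a scaled ratio of 875 with an exact 95% interval of 242 to 7225, and its level was 10.7 and 15.5 CPM in S24, against 0.0394 and 0 CPM in DS. PARP2 had 16.8 and 12.7 CPM in S24, against 0.867 and 0.891 CPM in DS (log2 fold change 4.07, SE 0.15, adjusted p = 1.26e-10), and TSO2, a subunit of ribonucleotide reductase, had 56.6 and 64.0 CPM in S24, against 3.86 and 4.13 CPM in DS (log2 fold change 3.91, SE 0.08, adjusted p = 1.42e-12). Smaller rises were found for XRI1 (1.29), BRCA1 (2.14) and PARP1 (1.18), and the call of PARP1 was lost when DS replicate 1 and S24 replicate 1 were both omitted (0.95).

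The target that fell was PARP3, a poly(ADP-ribose) polymerase gene abundant in seeds, and its fall was the largest of the list. PARP3 had 845 and 875 CPM in S24, against 5311 and 5136 CPM in DS (log2 fold change -2.60, SE 0.23, adjusted p = 5.12e-07). The signalling genes of the response did not rise. ATM had 42.9 and 33.7 CPM in S24, against 77.3 and 91.3 CPM in DS (log2 fold change -1.14, SE 0.12), and ATR had 7.83 and 6.36 CPM in S24, against 17.0 and 18.5 CPM in DS (log2 fold change -1.32, SE 0.13). SOG1, the factor that switches on the targets, was not called, with 25.9 and 28.7 CPM in S24 and 25.9 and 28.3 CPM in DS (log2 fold change 0.01). Of the 12 genes of repair enzymes, 1 fell and 11 were called in neither direction. The fall was PHR1, a photolyase gene, which had 3.38 and 3.28 CPM in S24, against 7.63 and 7.32 CPM in DS (log2 fold change -1.17, SE 0.12). Without organellar and rRNA loci the calls of ATM (-0.89) and PHR1 (-0.92) were lost, which left 2 falls on the list. Genes of DNA replication were low in both groups. Of 12 tested, 5 were higher (41.7%, against 17.7% of all nuclear loci) and none lower, and with at least 1 CPM 2 of 6 were higher. Only CDKA;1, a kinase of the whole cell cycle, was above 5 CPM, and it was not called (15.5 and 17.6 CPM in S24 and 14.4 and 14.1 CPM in DS). MCM2 and MCM3, of the replicative helicase, had log2 fold changes of 2.91 and 3.45 at averages of 1.13 ± 0.0667 and 0.577 ± 0.0700 CPM in S24, so these rises stand at the levels where S24 libraries held more low counts. CYCB1;1, a mitotic cyclin gene that DNA damage also induces, averaged 1.56 ± 0.0823 CPM in S24 and 0.549 ± 0.0240 CPM in DS. A fall of 1 gene appeared on the replication list without S24 replicate 1.

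Genes of transcription factors rose more often than they fell. Of 1021 genes tested whose product RefSeq names as a transcription factor or a factor family, 289 were higher (28.3%, against 17.7% of all nuclear loci tested) and 87 were lower (8.52%, against 10.2%). Among those with at least 1 CPM, 185 of 546 were higher and 70 lower. The largest rises included WRKY40, a factor of wound and abscisic acid responses, which had 9.37 and 13.3 CPM in S24, against 0.296 and 0.108 CPM in DS (log2 fold change 5.96, SE 0.53). HB16, a homeodomain leucine zipper gene, had 17.0 and 18.9 CPM in S24, against 0.572 and 0.422 CPM in DS (log2 fold change 5.22, SE 0.12, adjusted p = 3.09e-12), BBX28, a B-box gene of light signalling, had 14.0 and 16.4 CPM in S24, against 0.572 and 0.397 CPM in DS (log2 fold change 5.02, SE 0.18), and the Dof gene AT5G02460 had 42.7 and 54.2 CPM in S24, against 1.75 and 1.46 CPM in DS (log2 fold change 4.93, SE 0.22). AT1G49900, a C2H2 zinc finger gene, had 22.8 and 26.7 CPM in S24, against 0.513 and 0.494 CPM in DS (log2 fold change 5.62, SE 0.19). In each of these the DS libraries were under 3 CPM.

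Families of factors were then counted by product name, a choice made after values had been seen, so that the counts are descriptions. Their background is the 28.3% higher and 8.52% lower of all transcription factor genes tested. With at least 1 CPM it is 33.9% and 12.8%. Of 13 TCP genes tested, which control growth and cell division, 10 were higher (76.9%) and none lower, and 9 of 12 with at least 1 CPM. TCP14, which promotes growth of the embryo axis at germination, had 69.2 and 65.9 CPM in S24, against 6.56 and 7.34 CPM in DS (log2 fold change 3.27, SE 0.10, adjusted p = 2.70e-11), and TCP8 had 151 and 164 CPM in S24, against 54.1 and 55.0 CPM in DS (log2 fold change 1.53, SE 0.10). Of 8 WUSCHEL-related homeobox genes 5 were higher (62.5%) and none lower, and 4 of 5 with at least 1 CPM. Among them were WOX12 with 78.7 and 97.1 CPM in S24, against 3.47 and 2.87 CPM in DS (log2 fold change 4.81, SE 0.13) and WOX2, known from the early embryo, with 60.6 and 70.3 CPM in S24, against 23.5 and 23.4 CPM in DS (log2 fold change 1.48, SE 0.18). Dof genes were higher in 12 of 21 cases and WRKY genes in 25 of 55, with 0 Dof and 1 WRKY gene lower. With at least 1 CPM, 8 of 9 Dof genes and 15 of 26 WRKY genes were higher and none was lower. WRKY6 had 240 and 311 CPM in S24, against 20.4 and 21.3 CPM in DS (log2 fold change 3.72, SE 0.12), and WRKY11 had a log2 fold change of 3.27.

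Larger families held both directions. Of 84 AP2 and ERF genes 34 were higher (40.5%, against 28.3% of all transcription factor genes tested) and 6 lower (7.14%, against 8.52%). With at least 1 CPM, 17 of 37 were higher and 6 lower. DREB2C, a factor of heat and drought responses, had 293 and 325 CPM in S24, against 21.6 and 23.1 CPM in DS (log2 fold change 3.79, SE 0.13, adjusted p = 7.86e-11), and ABR1, a repressor of abscisic acid responses, had 1664 and 1856 CPM in S24, against 292 and 293 CPM in DS (log2 fold change 2.59, SE 0.11). The AP2 and ERF genes AT1G75490 and AT1G22190 fell, with 77.1 and 81.0 CPM in S24, against 1004 and 1047 CPM in DS for AT1G75490 (log2 fold change -3.70, SE 0.18, adjusted p = 2.17e-09) and 37.7 and 32.7 CPM in S24, against 352 and 366 CPM in DS for AT1G22190 (log2 fold change -3.35, SE 0.08, adjusted p = 3.27e-12). Of 78 NAC genes 25 were higher (32.1%) and 7 lower (8.97%), close to the shares of all transcription factor genes. With at least 1 CPM, 13 of 32 were higher and 5 lower. The falls included NAC032 (-2.58) with 62.6 and 64.1 CPM in S24, against 369 and 391 CPM in DS, NAC062 (-1.79) and ATAF1 (-1.70). NAC13 and NAC17, membrane-bound factors that relay mitochondrial stress to the nucleus, rose instead, with an average of 232 ± 24.0 CPM in S24 and 35.1 ± 0.0668 CPM in DS for NAC13 (log2 fold change 2.72, SE 0.08) and 286 and 290 CPM in S24, against 112 and 120 CPM in DS for NAC17 (log2 fold change 1.31, SE 0.06). Of 37 genes named as GATA type 14 were higher and 5 lower. BME3, a GATA factor that promotes germination, averaged 30.9 ± 6.66 CPM in S24 and 2.18 ± 0.217 CPM in DS (log2 fold change 3.81, SE 0.14). HSFA9, the heat shock factor of maturing seeds, fell, with 67.7 and 68.7 CPM in S24, against 554 and 565 CPM in DS (log2 fold change -3.04, SE 0.30, adjusted p = 1.27e-06), as did AT1G32700, a PLATZ factor gene, with 7.95 and 6.76 CPM in S24, against 63.7 and 64.5 CPM in DS (log2 fold change -3.12, SE 0.13).

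Genes that darkness and starvation induce in leaves, through the SnRK1 kinase, were lower in S24 in 10 of 19 cases (52.6%, against 10.2% of all nuclear loci). Of the rest 1 was higher, and the median log2 fold change of the list was -1.01. The number lower ranged from 6 to 11 over the alternatives, with 6 when organellar and rRNA loci were left out. ASN1, asparagine synthetase and the classic dark-induced gene, had 515 and 585 CPM in S24, against 1868 and 1944 CPM in DS (log2 fold change -1.79, SE 0.28, adjusted p = 9.64e-05). SEN1 had 11.8 and 11.3 CPM in S24, against 52.9 and 54.7 CPM in DS (log2 fold change -2.22, SE 0.24), and BCAT2, an aminotransferase of branched-chain amino acids, had 11.4 and 13.1 CPM in S24, against 52.2 and 56.2 CPM in DS (log2 fold change -2.15, SE 0.29). MCCA, a carboxylase subunit of leucine breakdown, had 19.4 and 19.8 CPM in S24, against 67.7 and 67.6 CPM in DS (log2 fold change -1.79, SE 0.17). TPS11, a class II trehalose phosphate synthase gene, had 200 and 209 CPM in S24, against 737 and 786 CPM in DS (log2 fold change -1.90, SE 0.15). The exception was GDH2, a glutamate dehydrogenase gene, with 284 and 303 CPM in S24, against 39.8 and 46.0 CPM in DS (log2 fold change 2.77, SE 0.11, adjusted p = 3.41e-10). The SnRK1 subunits KIN10 and KIN11 were not called (-0.15 and 0.06). A further rise appeared on the list without S24 replicate 1.

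Some sugar genes of the dry state fell. GOLS2 (AT1G56600, chromosome 1, 21207537 to 21209635), a galactinol synthase of the raffinose pathway whose product protects dry seeds, had 393 and 449 CPM in S24, against 2154 and 2278 CPM in DS (log2 fold change -2.40, SE 0.17, adjusted p = 4.91e-08). GOLS1 was not called (-0.66), and STS, stachyose synthase, averaged 15.6 ± 0.536 CPM in S24 and 34.2 ± 2.99 CPM in DS (log2 fold change -1.13, SE 0.12), a call lost without organellar and rRNA loci (-0.89). SIP2, an alkaline alpha-galactosidase gene that breaks raffinose down, had 954 and 1005 CPM in S24, against 310 and 327 CPM in DS (log2 fold change 1.62, SE 0.12, adjusted p = 7.41e-08), and CWINV1, a cell wall invertase gene, had 8.82 and 9.77 CPM in S24, against 2.01 and 2.12 CPM in DS (log2 fold change 2.16, SE 0.09). Of the 15 genes of this list 3 were higher (20.0%, against 17.7% of all nuclear loci) and 5 lower (33.3%, against 10.2%). SUS4, a sucrose synthase gene of the low oxygen list, had 90 counts in S24 and 2 in DS, a scaled ratio of 11.6 with an exact 95% interval of 3.12 to 97.2. It stood under 1 CPM, at the levels where S24 libraries held more low counts.

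Few genes of oil breakdown were called. Reserve oil feeds the seedling through beta-oxidation and the glyoxylate cycle. Of 20 tested none was higher and 1 was lower, with a median log2 fold change of -0.25. ICL, isocitrate lyase, had 6548 and 6918 CPM in S24 and 5641 and 5880 CPM in DS (0.23), and SDP1, the oil body lipase, had 310 and 303 CPM in S24 and 219 and 233 CPM in DS (0.44). PCK1, of gluconeogenesis, had 1000 and 986 CPM in S24 and 926 and 967 CPM in DS (0.07). All 3 were abundant in DS, and the S24 libraries lay slightly above the DS libraries without reaching 2-fold. The fall was ACX3, an acyl-CoA oxidase gene (log2 fold change -1.15, SE 0.06), and it was lost without organellar and rRNA loci (-0.91). The falls numbered 3 without DS replicate 1 and 2 without either S24 library.

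Few genes of protein synthesis and breakdown were called. Of 29 cytosolic ribosomal protein genes 1 was higher and none lower, and the median log2 fold change was 0.11. RPL3A had 168 and 182 CPM in S24 and 174 and 174 CPM in DS (0.01), and RPL4A had 212 and 229 CPM in S24 and 145 and 152 CPM in DS (0.57). The 1 rise was RPP0A, at 1.34 CPM on average in S24. Over all 330 genes with a ribosomal protein product that were tested, organellar types included, 17 were higher and 5 lower. None of the 35 subunits of the 26S proteasome was called. NAC53, which activates proteasome genes when the complex fails, had 55.3 and 57.9 CPM in S24, against 11.7 and 11.7 CPM in DS (log2 fold change 2.27, SE 0.07, adjusted p = 2.04e-11), and NAC78, its partner, was not called (-0.21). Rises on the proteasome list numbered 3 without DS replicate 2 and 2 without S24 replicate 1.

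Genes of splicing and mRNA turnover were called about as often as other loci, or less. Of 27 splicing factor genes 5 were higher (18.5%, against 17.7% of all nuclear loci) and none lower, and the number higher ranged from 2 to 8 over the alternatives. STA1, a U5 snRNP protein gene needed for cold tolerance, had 686 and 718 CPM in S24, against 175 and 199 CPM in DS (log2 fold change 1.91, SE 0.07, adjusted p = 2.30e-10), and SKIP, a spliceosome component that also acts on clock mRNAs, had 519 and 562 CPM in S24, against 234 and 245 CPM in DS (log2 fold change 1.17, SE 0.06). The rises of SR34B (1.32), RSZ22A (1.08) and U2AF65A (1.00) were near the 2-fold limit, and each was lost under at least 1 alternative. PRP8A, the core of the spliceosome, was not called (-0.34). Of 20 genes of translation initiation and decay 2 were higher (10.0%) and 2 lower (10.0%). CAF1A and CAF1B, deadenylases induced by stress, averaged 12.9 ± 1.23 CPM in S24 and 0.418 ± 0.00539 CPM in DS for CAF1A (log2 fold change 4.94, SE 0.16) and 19.0 ± 0.617 CPM in S24 and 2.39 ± 0.0451 CPM in DS for CAF1B (log2 fold change 2.99, SE 0.14). TZF5, a tandem zinc finger gene of seeds, had 14.7 and 15.8 CPM in S24, against 59.4 and 61.6 CPM in DS (log2 fold change -1.98, SE 0.20), and PEI1, of the same type and needed in embryos, fell (-1.75). Initiation factors, poly(A) binding proteins and the XRN4 exonuclease (-0.13) were called in neither direction.

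Of 8 genes of the bypass pathways of mitochondrial respiration tested, 3 fell (37.5%, against 10.2% of all nuclear loci) and 1 rose (12.5%, against 17.7%). The rise lay under 1 CPM, where S24 libraries held more low counts. Of the 6 genes with at least 1 CPM 3 fell and none rose. Over all 23 mitochondrial genes tested, 3 were higher and 4 lower (17.4%). AOX2, the alternative oxidase of seeds, had 22.8 and 22.9 CPM in S24, against 52.3 and 54.6 CPM in DS (log2 fold change -1.23, SE 0.14), a call lost without organellar and rRNA loci (-0.99), and NDA2, an alternative NADH dehydrogenase gene, had 16.6 and 17.5 CPM in S24, against 54.3 and 58.5 CPM in DS (log2 fold change -1.73, SE 0.10). AOX1A, the stress-induced oxidase, averaged 2.86 ± 0.461 CPM in S24 and 2.92 ± 0.398 CPM in DS. Import and chaperone genes were not called, for instance HSP60 (-0.02). The falls numbered 2 without DS replicate 2. Of 18 autophagy genes 1 was higher and 3 lower (16.7%), all within the ATG8 family, which marks the forming vesicle. ATG8H had 73.1 and 91.9 CPM in S24, against 195 and 197 CPM in DS (log2 fold change -1.25, SE 0.10), ATG8F had 48.5 and 56.9 CPM in S24, against 121 and 123 CPM in DS (log2 fold change -1.21, SE 0.07, and -0.98 and not called without organellar and rRNA loci), and NBR1, a cargo receptor, was not called (1540 and 1668 CPM in S24 and 992 and 1030 CPM in DS). The 1 rise, ATG8D (1.04), was lost without S24 replicate 2 (0.88), and the falls numbered 1 without organellar and rRNA loci.

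Tubulin genes rose in part, and no actin gene rose. Of 15 tubulin genes 8 were higher and 1 lower, and of 8 actin genes none was higher and 4 were lower. Over the whole list 34.8% were higher and 21.7% lower, against 17.7% and 10.2% of all nuclear loci. Of the 4 actin genes with at least 1 CPM 1 was lower. TUB4 had 97.0 and 109 CPM in S24, against 13.6 and 14.3 CPM in DS (log2 fold change 2.89, SE 0.08, adjusted p = 1.20e-11), TUA5 had 171 and 184 CPM in S24, against 50.3 and 54.3 CPM in DS (log2 fold change 1.76, SE 0.07), and TUA3 had 168 and 185 CPM in S24, against 52.8 and 56.3 CPM in DS (log2 fold change 1.69, SE 0.07). The main vegetative actin genes were called in neither direction, with 386 and 443 CPM in S24 and 349 and 366 CPM in DS for ACT7 (0.21) and a log2 fold change of -0.03 for ACT2. ACT4 and ACT12, which pollen expresses, were the actin genes with the largest falls (-4.31 and -4.99). Falls on the list numbered 3 without DS replicate 2 or without S24 replicate 1. TUA3 and TUA5 encode near-identical proteins, and reads that fit both were placed at 1 location at random, so their levels are not independent.

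Of the water channels 18 were tested, and 1 was higher (5.56%) and 3 lower (16.7%). TIP3;1 and TIP3;2, the channels of protein storage vacuoles, had 1267 and 1574 CPM in S24, against 3439 and 3633 CPM in DS for TIP3;1 (log2 fold change -1.32, SE 0.20) and 1004 and 1242 CPM in S24, against 3399 and 3562 CPM in DS for TIP3;2 (log2 fold change -1.63, SE 0.23, adjusted p = 4.08e-05). PIP1;2, a plasma membrane channel gene, had 176 and 202 CPM in S24 and 307 and 324 CPM in DS and was not called (-0.74). The third fall, PIP2;8, had no count in S24 and at most 3 counts in either DS library, so no fold is given, and the rise, PIP2;6, averaged 0.132 CPM in S24 and was lost without either DS library. Among genes of the cell wall, EXPA10, an expansin that loosens walls for growth, had 28.4 and 34.9 CPM in S24, against 0.0986 and 0.217 CPM in DS (log2 fold change 7.52, SE 0.29, adjusted p = 1.78e-10).

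Ethylene and jasmonate genes that were called in the main fit were all higher, while smaller changes went both ways. Of 14 ethylene genes 4 were higher (28.6%, against 17.7% of all nuclear loci) and none lower. EBF1, an F-box gene that EIN3 switches on and that removes EIN3, had 721 and 757 CPM in S24, against 144 and 149 CPM in DS (log2 fold change 2.33, SE 0.17, adjusted p = 8.33e-08). EIL1, the close relative of EIN3, had 340 and 348 CPM in S24, against 120 and 122 CPM in DS (log2 fold change 1.51, SE 0.08), and the receptor gene EIN4 had 66.7 and 66.0 CPM in S24, against 20.4 and 21.3 CPM in DS (log2 fold change 1.67, SE 0.06). EIN3 itself was not called, with 821 and 872 CPM in S24 and 611 and 618 CPM in DS (0.46). Of 15 genes of jasmonate, wound and touch responses, 6 were higher (40.0%, against 17.7% of all nuclear loci) and none lower, apart from 1 fall that appeared without S24 replicate 1. JAZ1, a repressor that jasmonate induces, had 32.8 and 33.6 CPM in S24, against 4.08 and 4.81 CPM in DS (log2 fold change 2.89, SE 0.13, adjusted p = 6.87e-10), MYC2, the main jasmonate factor, had 9.21 and 8.33 CPM in S24, against 2.90 and 3.47 CPM in DS (log2 fold change 1.45, SE 0.10), and TCH2, a calmodulin-like touch gene, had 6.65 and 8.43 CPM in S24, against 1.16 and 1.23 CPM in DS (log2 fold change 2.65, SE 0.15). Enzymes of jasmonate synthesis were called in neither direction, such as OPR3 (0.88).

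**Figure D5:**
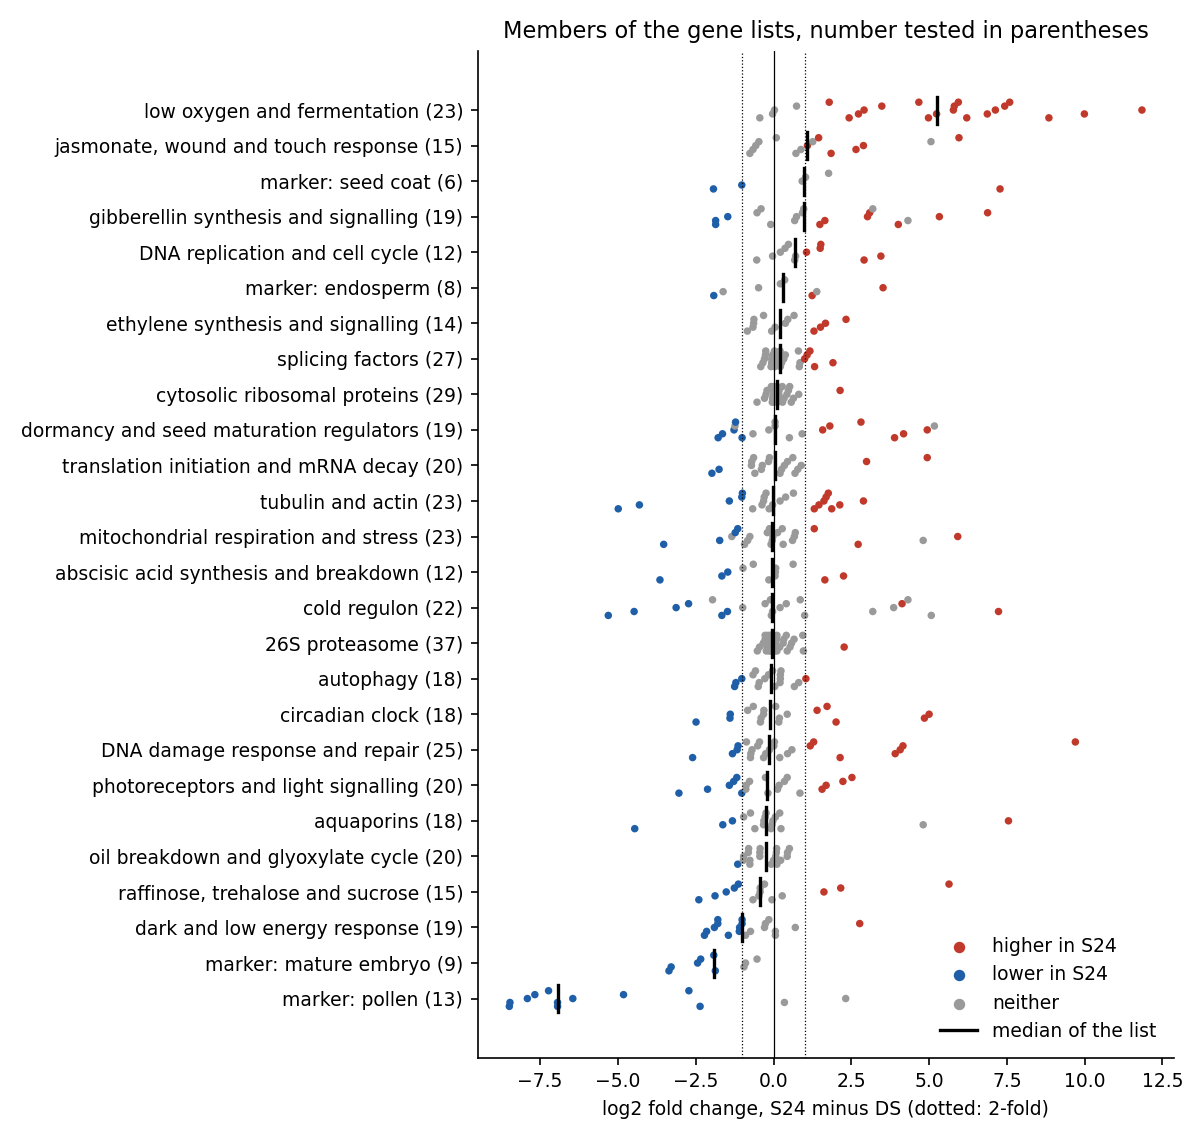
Log2 fold change (S24 minus DS) of each tested member of the gene lists, 1 list in each line, with the median of the list marked. The low oxygen list lies highest, with a median of 5.24, and the pollen markers lie lowest, with a median of -6.94.

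Marker genes of other cell types moved with the comparison. Of 13 pollen markers tested 11 were lower and none higher, with a median log2 fold change of -6.94, and their summed level was 8.01 and 8.74 CPM in S24, against 148 and 188 CPM in DS. VGD1, a pectin methylesterase gene of pollen tubes, had 0.130 and 0.182 CPM in S24, against 33.4 and 41.9 CPM in DS (log2 fold change -7.91, SE 0.55), and AGP11, an arabinogalactan protein gene, was not called, with 4.71 and 5.76 CPM in S24 and 3.59 and 4.58 CPM in DS. The 24 falls among 81 genes for pectin methylesterases and their inhibitors include members of this list, such as PPME1 (-2.72). The pectin methylesterase gene AT5G07420 had 2 counts in S24 and 52 in DS, a scaled ratio of 0.00991 with an exact 95% interval of 0.00117 to 0.0376. Both DS libraries held pollen markers at a like level, so the signal did not rest on 1 library, and whether pollen adhered to the dry seeds was not tested.

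Among markers of the seed's own tissues, the summed level was lower in S24 for the embryo and the endosperm and higher for the seed coat. The 9 markers of the mature embryo summed to 26124 and 32455 CPM in S24, against 101146 and 103323 CPM in DS, with 6 lower and none higher. The endosperm markers summed to 1271 and 2009 CPM in S24, against 4807 and 7088 CPM in DS, and most of that sum was EPR1, an extensin-like gene of the endosperm, with 1196 and 1927 CPM in S24, against 4783 and 7063 CPM in DS (log2 fold change -1.92, SE 0.24). CP1, a cysteine protease gene, and MAN5, an endo-beta-mannanase gene that softens the endosperm wall, rose, with 29.4 and 34.9 CPM in S24, against 3.13 and 2.52 CPM in DS for CP1 (log2 fold change 3.52, SE 0.15, adjusted p = 4.13e-10) and 38.4 and 41.9 CPM in S24, against 16.1 and 17.8 CPM in DS for MAN5 (log2 fold change 1.24, SE 0.09). Seed coat markers summed to 16.5 and 16.5 CPM in S24, against 9.30 and 10.1 CPM in DS. Their calls did not follow the sum, with 1 of 6 tested higher and 2 lower. Of the 2 with at least 1 CPM none was higher and 1 was lower. BAN and TT2, which define the seed coat early in development, averaged under 0.05 CPM in both groups. The seed coat is dead tissue in a mature seed. Of 76 late embryogenesis abundant genes tested 14 were higher (18.4%, against 17.7% of all nuclear loci) and 19 lower (25.0%, against 10.2%). With at least 1 CPM, 7 of 39 were higher and 17 lower. AT2G42560 had 41.8 and 48.1 CPM in S24, against 945 and 676 CPM in DS (log2 fold change -4.17, SE 0.17, adjusted p = 3.03e-10), whereas the rises included AT2G27080, a gene of the hydroxyproline-rich type (2.97).

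Loci of several non-coding classes were higher in S24 in a larger share than protein-coding genes. Pseudogenes were so only among loci with at least 1 CPM. Of 1909 loci with only de novo transcripts, which the authors reconstructed from the reads, 576 were higher (30.2%) and 91 lower. This class was built from reads of all libraries, and the S24 libraries were deeper than the DS libraries. Loci could thus enter it through their S24 reads, so its shares are not independent of that selection. Of 1268 annotated non-coding RNAs 253 were higher (20.0%) and 80 lower, and of 23106 protein-coding genes 3743 were higher (16.2%) and 2691 lower (11.6%). Of 1892 pseudogenes 296 were higher (15.6%) and 34 lower (1.80%), and these are the loci whose median count was 0 in both DS libraries. With at least 1 CPM, 59 of 174 pseudogenes were higher (33.9%) and 19 lower (10.9%). At that level 16.5% of protein-coding genes, 36.1% of annotated non-coding RNAs and 53.0% of de novo loci were higher. Small RNA and microRNA loci gave 203 higher (44.4%) and 12 lower of 457, and the library preparation is not made to capture mature small RNAs. Among the de novo loci, 1569 lay opposite a protein-coding gene, and 486 of these antisense loci were higher and 80 lower.

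The antisense transcript with the largest rise at 20 CPM or more was HOMER_RNA_00012888 (chromosome 1, 12095574 to 12096423), with 58.4 and 109 CPM in S24, against 0.0986 and 0.0964 CPM in DS (log2 fold change 9.74, SE 0.41, adjusted p = 4.35e-10). Its sense gene AT1G33360, for a Clp protease subunit, had 16.8 and 15.9 CPM in S24 and 19.1 and 20.2 CPM in DS. HOMER_RNA_00033833 had 23.5 and 25.5 CPM in S24, against 0 and 0.0964 CPM in DS (log2 fold change 8.67, SE 0.34), and its sense gene AT1G26300 had 14.4 and 16.5 CPM in S24 and 12.7 and 12.7 CPM in DS. In both pairs the antisense RNA was called and the sense gene was not. In other pairs both strands rose. HOMER_RNA_00156178 (chromosome 5, 15256956 to 15257818) had 5.21 and 4.30 CPM in S24 and no count in DS, which is at least 99.9-fold higher when DS is set to 3 counts per library. Its sense gene AT5G38200, of the glutamine amidotransferase type, had 334 and 335 CPM in S24, against 12.9 and 12.7 CPM in DS (log2 fold change 4.71, SE 0.12). The antisense transcripts at SRO2, FD3 and AT1G13390 likewise had no count in DS, and were at least 67.2, 57.7 and 53.6-fold higher, and the sense genes had 147 and 163 CPM in S24, against 42.1 and 46.0 CPM in DS for SRO2, 251 and 278 CPM in S24, against 50.4 and 51.4 CPM in DS for FD3 and 131 and 147 CPM in S24, against 44.0 and 45.4 CPM in DS for AT1G13390. HOMER_RNA_00152559, with no gene on the other strand, was at least 55.9-fold higher.

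Falls of antisense transcripts were fewer. HOMER_RNA_00027301, antisense to QKY, had 0.856 and 1.03 CPM in S24, against 23.4 and 24.6 CPM in DS (log2 fold change -4.67, SE 0.24, adjusted p = 3.27e-09), while QKY, which acts in tissue patterning, had 33.7 and 33.1 CPM in S24 and 21.1 and 22.2 CPM in DS. HOMER_RNA_00058069 fell together with its sense gene AT2G27940, a RING finger gene, with 2.04 and 1.92 CPM in S24, against 40.0 and 44.6 CPM in DS for the antisense RNA and 8.47 and 10.0 CPM in S24, against 37.1 and 39.1 CPM in DS for the gene. HOMER_RNA_00058018, antisense to the zinc finger gene ATCTH, had 6.45 and 1.02 CPM in S24, against 73.5 and 67.5 CPM in DS, and its call was lost without S24 replicate 2 (log2 fold change -3.49). HOMER_RNA_00104009 had 0.684 and 0.784 CPM in S24, against 68.3 and 2.34 CPM in DS, and without DS replicate 1 its log2 fold change was -1.70 and its call was lost. HOMER_RNA_00089988, antisense to PMAT2, fell as well (-3.40).

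Among annotated non-coding RNAs, AT3G04775 (chromosome 3, 8979070 to 8979756) was among those that rose most, with 91.0 and 89.1 CPM in S24, against 1.46 and 0.675 CPM in DS (log2 fold change 6.50, SE 0.22, adjusted p = 5.94e-11). AT2G08955 had 6.55 and 6.65 CPM in S24, against 0.138 and 0.0482 CPM in DS (log2 fold change 6.29, SE 0.39), and AT2G09515 had 3.08 and 3.27 CPM in S24, against 0.0394 and 0.0482 CPM in DS (log2 fold change 6.13, SE 0.54). AT5G07125 had 1733 counts in S24 and 1 in DS, a scaled ratio of 446 with an exact 95% interval of 80.0 to 17639. AT1G08633 had 3.36 and 2.83 CPM in S24 and no count in DS, and its log2 fold change had the largest SE of the loci named here (3.13). The largest falls were AT1G08592 (-2.90), AT5G08275 (-2.83) and AT5G08285 (-2.77), all at low levels. AT1G11175 (chromosome 1, 3744858 to 3745655) fell from a higher base, with 27.2 and 27.6 CPM in S24, against 158 and 158 CPM in DS (log2 fold change -2.53, SE 0.15, adjusted p = 9.94e-09), and AT1G15175 had 2.14 and 2.48 CPM in S24, against 13.9 and 12.2 CPM in DS (log2 fold change -2.50, SE 0.17).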

How the data were processed

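Stranded total RNA libraries depleted of rRNA were sequenced for 8 groups of 2. The authors deposited estimated counts of each transcript. They mapped reads to TAIR10 with STAR 2.7.9a, placing multimapped reads at 1 random location, and quantified Araport11 and de novo transcripts with StringTie 2.1.4. The values are therefore expected counts, unscaled between libraries. TPM of 46640 of 61786 transcripts were also deposited by the authors, and they were used here for levels only. Columns of the authors' own comparisons were not used. A count column with a misspelled name was read as rrp4-2 replicate 1, which only enters the fit.

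Counts were summed per locus, rounded and fitted in R 4.3.3 with edgeR 4.0.16, with TMM scaling, filterByExpr and 1 quasi-likelihood fit of all 16 libraries. Adjusted p is edgeR's, by the Benjamini-Hochberg method over 28824 loci, 2-sided. A call needed an adjusted p under 0.05 and a 2-fold change, and SE is the log2 fold change over the root of F. A fold against a group without counts used a floor of 3 counts per library. Floors and exact intervals cover counting error only. Tables and plots used Python 3.11.15, pandas 2.3.3, numpy 2.4.6 and matplotlib 3.10.9.

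All 37390 annotated loci matched the RefSeq annotation of TAIR10.1, and 98.8% of 171 introns read at the files' coordinates had GT and AG ends there. Transposable element genes were not separated from pseudogenes, since that annotation does not separate them.

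Gene lists and members were chosen with earlier results of these data known. Named genes were up to 4 called members of each list with at least 5 CPM, further members by role, the 12 largest rises and falls with at least 20 CPM, the 10 loci highest in TPM in either group, 5 rises and 5 falls of non-coding loci with at least 2 CPM, and 12 rises and 8 falls of transcription factor genes with at least 10 CPM. Families, promoters shown and their members were chosen after values had been seen. A gene of one list and a promoter are not reported here. Alternative settings comprised size factors of DESeq2 1.42.0 within edgeR, its Wald test, fits without the low-count filter or without organellar and rRNA loci, only the 4 libraries compared, a replicate block, other fold limits and omission of single libraries, where the remaining library of a group was taken to vary as much as libraries of other groups do. S24 libraries were also thinned to the mean total of the DS libraries. Omission of DS replicate 1 with S24 replicate 1, and the counts over loci with at least 1 CPM, were added after seeing the data. On data simulated for this comparison, 78 of 100 loci changed 2-fold and 100 of 100 changed 4-fold had an adjusted p under 0.05. With the 2-fold limit of a call added, these numbers were 47 of 100 and 100 of 100. Of 26683 unchanged loci 4 were called, and their median log2 fold change was -0.0015. How the number called changes with the scaling, rRNA share and low counts of the sequenced libraries was not tested.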

Additional observations from a re-analysis of the deposited data

How the results depend on the processing

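The balance between higher and lower calls depended on scaling. Of 5071 loci higher and 2910 lower, 63.5% of calls were higher. DESeq2 size factors gave 4460 and 3640 (55.1% higher), the DESeq2 Wald test 4587 and 3576, and leaving out organellar and rRNA loci 6171 and 2085 (74.7% higher). Without the filter 4560 were higher and 3072 lower, with the 4 libraries compared alone 4701 and 2933, and with S24 counts thinned to the mean DS total 4957 and 2972. Each library left out in turn gave 4237 to 5212 higher and 2503 to 3206 lower. Omission of DS replicate 1 with S24 replicate 1 gave 4165 and 3128. Without a minimum fold change 8288 were higher and 7064 lower, at 4-fold 3054 and 1006, and with at least 1 CPM 2946 were higher. No locus called in the main fit was called in the opposite direction under the other fits. The replicate block gave 4838 higher and 2847 lower, but deviations of libraries with the same number correlated only from -0.0471 to 0.091 over 28 pairs of groups, so the numbers are no pairing. Of 270 named or listed loci called with at least 5 CPM, 232 were called under all 12 alternatives. Loci with few counts in DS limit the precision of the largest rises, since depth there was the lowest.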
